A study of Mus musculus with 10 samples.

Results

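The cytosolic ribosomal protein genes were taken from the gene list of the deposited files as the symbols that start with Rps or Rpl and a number, together with Rpsa, Rplp0, Rplp1 and Rplp2. Kinases of the Rps6k family and symbols marked as pseudogenes were left out. The rule gave 86 members among 32285 genes, 33 of the small ribosomal subunit, 52 of the large subunit, and Rps19bp1, which matches by its name but encodes a binding partner of a ribosomal protein. They were measured in droplet single-cell libraries that count a transcript once, at its 3′ end, by its unique molecular identifier (UMI). Each library came from the pooled sensory epithelia of 7 to 8 wild-type CBA/J mice aged 22 months, either of the whole cochlea or of the whole vestibule, dissociated with collagenase IV and otherwise untreated. Young libraries were not analysed here, so no value below is a change with age. Nothing in the labels ties the replicates to more than separate pools of mice, and p-values measure the spread between pools.

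Ribosomal proteins and ribosomal RNA together build the ribosome, the particle that translates every mRNA. The small subunit reads the message and the large subunit joins amino acids. Their mRNAs are among the most abundant in a cell, and most begin with an uninterrupted run of C and T, the terminal oligopyrimidine (TOP) tract, through which mTOR and Larp1 couple their translation to growth signals. Hair cells (HCs) are the mechanosensory cells of both organs and do not divide in the adult, whereas lymphocytes are small cells known for a large share of ribosomal protein transcripts.

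Of the 10 libraries, replicate 2 of each organ held the cells of replicate 1. All 1313 barcodes of cochlear replicate 2 and 1633 of the 1641 of vestibular replicate 2 were in replicate 1, while other pairs shared at most 41 barcodes. In the shared cells the counts differed by less than the sampling noise, so replicate 2 was left out and n was 4 pools per organ. The 8 libraries used held between 2738036 and 26974948 UMIs, and 571 to 5438 cells per library were kept, 7272 cochlear and 10424 vestibular cells in all. Clusters were made without the members and named "X-like" from 6 markers per cell type, which placed 4215 cochlear and 7581 vestibular cells. In the kept cells of a whole library the members held 13.7% to 16.7% of UMIs in the cochlea and 10.9% to 11.4% in the vestibule.

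Annotated start sites of members whose results are described below are shown first, since a run of C and T at the start of the mRNA is the sequence feature that this gene family is known for. The windows of 30 bases hold 15 bases on each side of the RefSeq start (GRCm38.p6) on the gene's own strand, and capitals mark the longest run of C and T in each window. The first lines are the members with the largest falls in HC-like cells, the next ones members that did not fall there, and the last ones members that differed between organs or form a close pair.
Rpl10, chrX:74270801-74270830, plus strand: gttgttacagtggaagataggccgCCTata
Rps12, chr10:23787195-23787224, minus strand: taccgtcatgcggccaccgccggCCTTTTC
Rpl11, chr4:136053379-136053408, minus strand: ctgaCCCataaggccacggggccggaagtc
Rpsa, chr9:120127751-120127780, plus strand: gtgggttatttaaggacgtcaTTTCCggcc
Rps2, chr17:24720048-24720077, plus strand: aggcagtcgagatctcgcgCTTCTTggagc
Rpl22l1, chr3:28805493-28805522, plus strand: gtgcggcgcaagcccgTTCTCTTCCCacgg
Rpl36al, chr12:69184053-69184082, minus strand: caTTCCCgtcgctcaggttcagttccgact
Rpl39, chrX:37085208-37085237, minus strand: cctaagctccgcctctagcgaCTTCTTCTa
Rps27, chr3:90213634-90213663, minus strand: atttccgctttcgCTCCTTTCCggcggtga
Rps27rt, chr9:114982725-114982754, minus strand: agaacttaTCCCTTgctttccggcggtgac

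Among the 66 members that matched the RefSeq table, the longest run of C and T had a median of 7 bases, against 5 over the 27025 genes of the table. Where a gene had several annotated starts, the longest run over their windows was counted, while the first listed start is shown above. A run of at least 8 was found in 27 of the 66 members (40.9%) and in 3760 of all genes (13.9%). In the windows shown, Rpl22l1 with a run of 10 and Rps27 with a run of 9 held long tracts, and Rpl10 and Rpl11 held runs of 3. Of members whose level was lower in vestibular HC-like cells 25 of 53 (47.2%) had a run of at least 8, and of tested members that did not pass that test 2 of 10. Only C and T were searched, on the gene's strand, and a short run says no more than that the letters are not beside the annotated start, which can lie away from the start that cells use. Rps27 and Rps27rt share 14 bases in a row in their windows.

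Summed over all members, ribosomal protein transcripts took between 4.15% of UMIs in cochlear granulocyte-like cells and 30.9% in vestibular T cell-like cells. In both organs T cell-like cells were highest, followed by B lineage-like, macrophage-like and supporting cell-like (SC-like) cells. The T cell-like share was 28.8% ± 2.30 (SD, n = 4) in the cochlea and 30.9% ± 2.64 (n = 3) in the vestibule. B lineage-like cells followed with 25.3% ± 2.73 (n = 3) and 27.2% ± 2.05 (n = 4), and their libraries overlapped with the T cell-like ones in each organ. Macrophage-like cells held 17.6% ± 1.39 and 20.2% ± 0.181, and SC-like cells 16.5% ± 0.389 and 14.8% ± 1.47 (n = 4 each). A share is relative, so fewer member UMIs and more UMIs of other genes cannot be told apart.

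**Figure D1:**
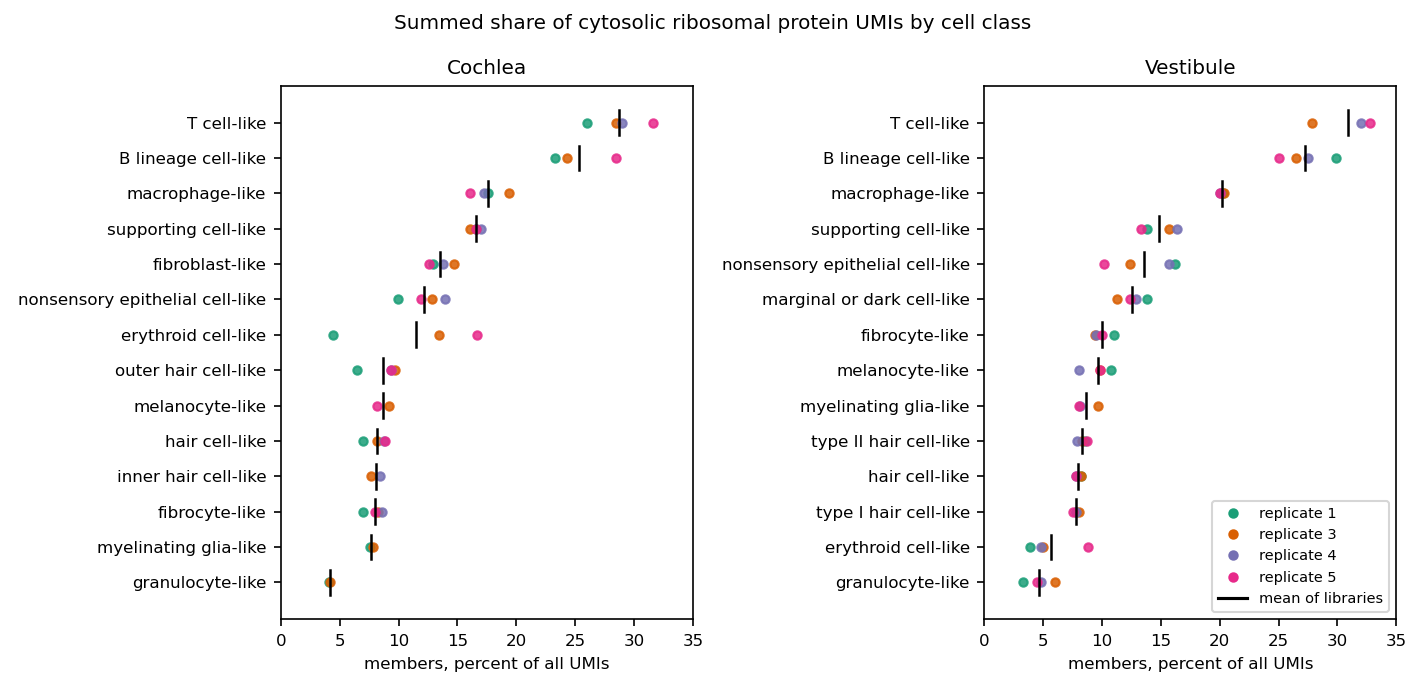
Summed share of the members in percent of all UMIs (x axis) for each cell class of the cochlea (left) and the vestibule (right). Points are libraries coloured by replicate and black lines are their means. T cell-like libraries lie at 26.0% or more. Libraries of all hair cell-like cells lie at 8.86% or less, and those of outer hair cell-like cells alone reach 9.66%.

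The epithelial and mesenchymal classes lay between. Nonsensory epithelial-like cells held 12.2% ± 1.67 in the cochlea and 13.6% ± 2.86 in the vestibule, and fibroblast-like cells of the cochlea 13.5% ± 0.941. Marginal or dark cell-like cells of the vestibule were at 12.6% ± 1.09 (n = 4). At the lower end stood fibrocyte-like cells, with 7.97% ± 0.732 in the cochlea and 9.98% ± 0.760 in the vestibule, and HC-like cells, with 8.20% ± 0.846 and 7.99% ± 0.258. Among fibrocyte-like, melanocyte-like, myelinating glia-like and HC-like cells, neighbours in this order differed by less than the larger SD of the pair. Granulocyte-like cells were lowest, at 4.15% (2 cochlear libraries, 4.09% and 4.20%) and 4.63% ± 1.11 (n = 4). Erythroid-like cells varied most, from 4.46% to 16.7% between cochlear libraries, where haemoglobin took a mean of 45.2% of their UMIs.

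The share also varied from cell to cell within a class. The quartiles of vestibular HC-like cells were 6.30% and 9.34%, and those of vestibular SC-like cells 9.01% and 18.4%, so that the ranges between quartiles met at their ends. In T cell-like cells of the vestibule the quartiles were 21.1% and 33.1%, above those of both epithelial classes.

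Vestibular HC-like cells were compared with SC-like cells, the epithelial cells that surround them, in the same 4 pools. The summed share in HC-like cells was 8.21%, 8.23%, 7.78% and 7.76% in replicates 1, 3, 4 and 5. In SC-like cells it was 13.8%, 15.7%, 16.4% and 13.3%. Every HC-like value lay below every SC-like value, and the difference was -6.81 percentage points (exact permutation test, two-sided, p = 0.0286, the smallest this design allows, and 0.0476 after Benjamini-Hochberg adjustment over 5 share comparisons). Thinning each cell to 1000 UMIs gave -6.42 points. In the cochlea the difference was -8.34 points, again without overlap (exact permutation p = 0.0286). With pools kept together the exact sign-flip test cannot go below 0.125, the value it gave for the vestibule.

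Gene by gene, 72 of the 83 members tested were lower in vestibular HC-like cells and 0 were higher (edgeR's quasi-likelihood test, Benjamini-Hochberg adjusted p under 0.05 over all genes). Of all 9261 genes tested, 28.4% were lower and 29.7% higher. No member was higher at an unadjusted p under 0.05, and DESeq2 called 71 lower and 0 higher. The median log2 fold change of the members was -1.02, against 0.07 over all genes tested. Scaled by library size alone these medians were -0.87 and 0.23, and 69 members were lower. In the small subunit 28 of 33 fell, and in the large subunit 44 of the 49 tested.

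Rpl10, a large-subunit protein that joins late, near the site of peptide bond formation, fell most. Its level, in UMIs per 1000000 UMIs of the class (CPM), was 411, 528, 414 and 326 in HC-like cells of replicates 1, 3, 4 and 5, and 1962, 1954, 1919 and 1217 in SC-like cells. All HC-like values were below all SC-like values, and SC-like replicate 5 stood apart from the others. The log2 fold change was -2.22 (SE 0.222, adjusted p = 9.51e-09). Rps12, a protein of the small-subunit head, was at 471, 493, 369 and 247 against 1924, 1914, 1682 and 839, a log2 fold change of -2.17 (SE 0.261, adjusted p = 1.74e-07). Replicate 5 was the lowest pool in both classes, and the classes did not overlap. Rps26, which lines the mRNA exit channel, fell by 1.92 on the log2 scale (adjusted p = 1.23e-08).

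The 5S RNA partners Rpl5 and Rpl11, which also bind Mdm2 and so link ribosome assembly to p53, had unequal values. Rpl11 had 547, 671, 729 and 609 CPM in HC-like cells and 1573, 2389, 3157 and 2403 in SC-like cells, with a log2 fold change of -2.06 (SE 0.234, adjusted p = 7.80e-08). The classes did not overlap in Rpl11. Rpl5 had 396, 416, 332 and 270 against 457, 593, 406 and 306, with a log2 fold change of -0.51 (SE 0.204, adjusted p = 0.0382). For Rpl5 the classes overlapped across pools, although HC-like cells were lower within each pool.

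The acidic stalk of the large subunit, where translation factors dock, is made of Rplp0, Rplp1 and Rplp2, and all of them were lower. Rplp0, the base of the stalk, had 449, 407, 395 and 402 CPM in HC-like and 1110, 1206, 1611 and 1196 in SC-like cells, a log2 fold change of -1.79 (adjusted p = 2.83e-08). Rplp1 fell by 1.60 (adjusted p = 3.19e-05) and Rplp2 by 0.86 (adjusted p = 0.000635). In the cochlea Rplp0 fell by 1.93 and Rplp2 by 0.95, while the log2 fold change of Rplp1 was -0.30 (adjusted p = 0.474). The difference of that Rplp1 value between the organs did not pass (log2 1.08, SE 0.452, adjusted p = 0.101).

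**Figure D2:**
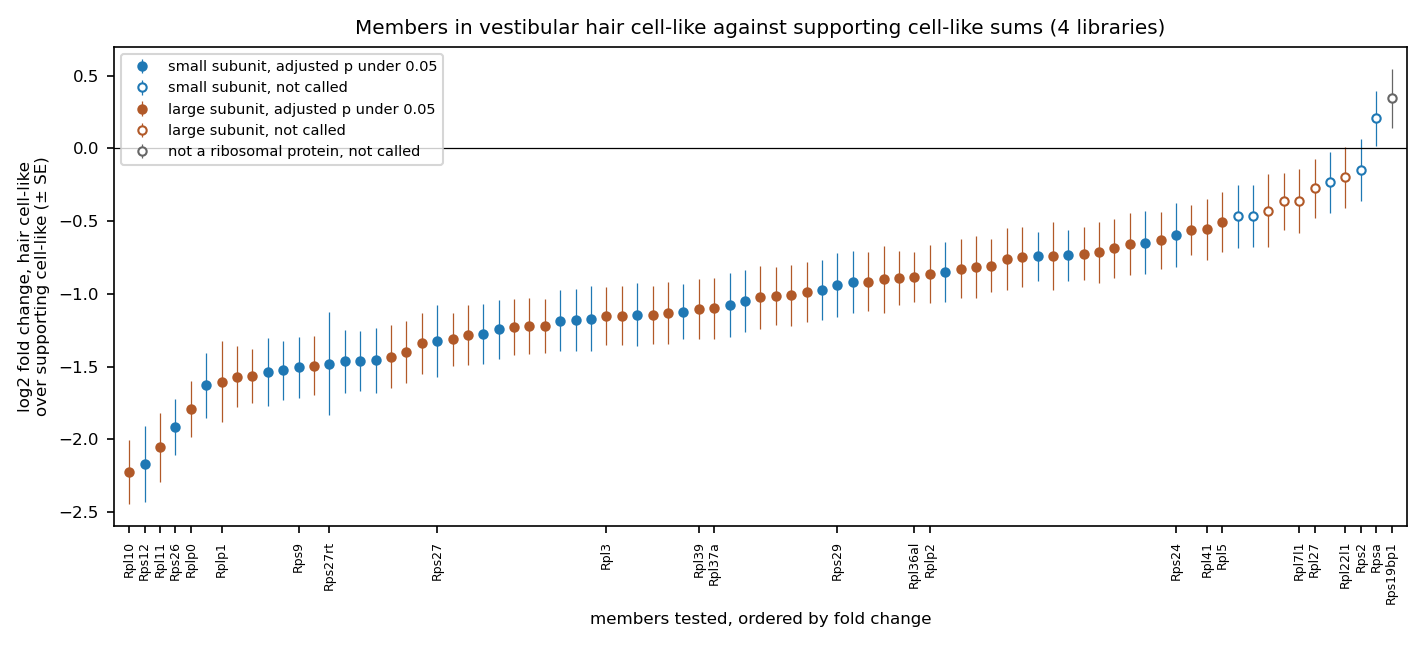
Log2 fold change of the 83 tested members in vestibular hair cell-like over supporting cell-like sums (y axis, ± SE, 4 libraries per class), ordered along the x axis, with some members named. Filled points passed adjusted p under 0.05 and open points did not; the values run from -2.22 for Rpl10 to 0.34 for Rps19bp1.

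The 11 tested members that did not pass included Rpl22l1, Rpl27, Rpl7l1, Rps19bp1, Rps2 and Rpsa. Rpsa, the small-subunit protein also known as the laminin receptor precursor, had 1924, 1670, 1503 and 1679 CPM in HC-like and 1364, 1357, 1314 and 1233 in SC-like cells. Here each HC-like pool was above each SC-like pool, although the fitted log2 fold change was 0.21 (SE 0.190, adjusted p = 0.369). Rps2, at the mRNA entry channel, had 1447, 816, 860 and 1293 against 1176, 845, 1084 and 1305, overlapping values with a log2 fold change of -0.15 (adjusted p = 0.573). Rps19bp1, the member that is no ribosomal protein, had a log2 fold change of 0.34 (adjusted p = 0.157).

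To ask which members departed from the fall of the whole group, the same fit was made with the summed members as the reference. Relative to this pool, 18 members were higher (all genes: 68.9%) and 15 lower (all genes: 12.7%) in a fit where the median of all genes was 1.14. Rpsa was 1.24 higher on the log2 scale (SE 0.175, adjusted p = 9.52e-07), Rps2 0.88 higher and Rpl22l1 0.86 higher. Rpl10 was 1.18 on the log2 scale below the pool's own change, a value of -1.18 (adjusted p = 4.76e-06), Rps12 was at -1.12, Rpl11 at -0.99, Rps26 at -0.87 and Rplp0 at -0.74. Rplp1 was at -0.54 (adjusted p = 0.0315), while Rplp2 at 0.18 did not pass (adjusted p = 0.324). Of the stalk, Rplp0 and Rplp1 thus fell beyond the group, and Rpl5 with 0.55 (adjusted p = 0.00900) fell less than the group.

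The same comparison in the separate libraries of the cochlea, for which the labels do not say whether the same mice gave both organs, called 72 of 83 members lower (all genes: 23.2%) and 0 higher (all genes: 20.1%), with a median log2 fold change of -1.25. Of these, 69 were lower in both organs, and 81 of 83 had negative values in both. The share of all genes lower in both organs was not counted. Singly it was 28.4% in the vestibule and 23.2% in the cochlea. Across the 83 members Pearson's r between the organs' log2 fold changes was 0.788. The members are not independent replicates, and all points of an organ share its libraries.

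**Figure D3:**
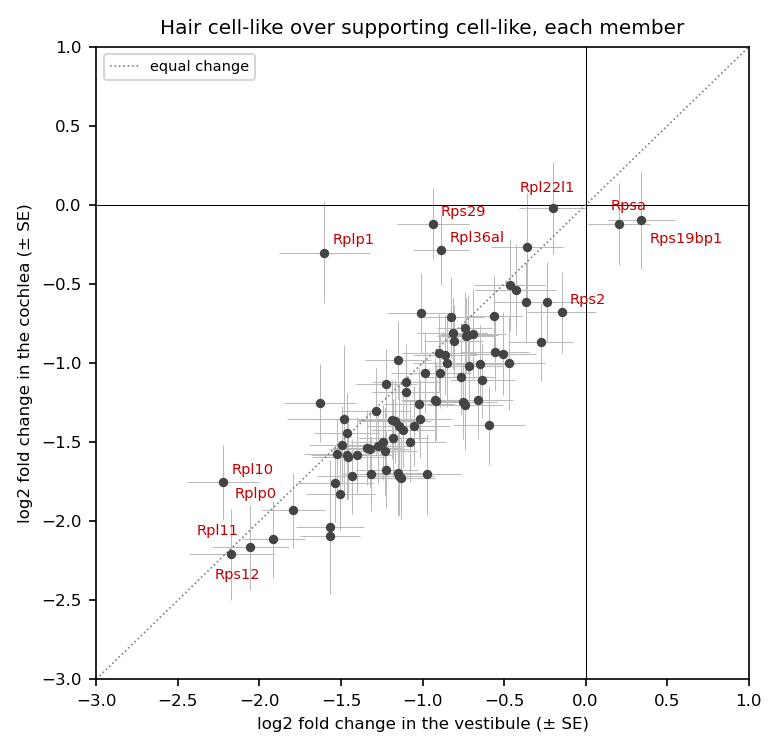
Log2 fold change of each of 83 members, hair cell-like over supporting cell-like, in the vestibule (x axis) against the cochlea (y axis), with SE bars and the dotted line of equal change. Rpl10, Rps12, Rpl11 and Rplp0 lie toward the lower left, and Rps29, Rpl36al and Rplp1 lie above the line.

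Markers of other cells and depth differed between these classes. The 6 HC markers summed to 2899 to 3509 CPM in vestibular HC-like and 326 to 430 in SC-like cells, and the 6 SC markers to 147 to 199 and 4475 to 6556. Nonsensory epithelial markers summed to 208 to 361 in HC-like and 2068 to 4181 in SC-like cells, B lineage markers to 324 to 477 and 21.8 to 38.2, and erythroid markers reached 4001 and 24727. The B lineage sum differed between the HC types described below, with 417 to 579 in type I and 18.9 to 91.6 in type II cells. T cell markers, whose cells hold the largest member share, reached 1.72 CPM in HC-like and 2.23 in SC-like cells. Median depth was 3815 UMIs in HC-like and 2200 in SC-like cells, and mitochondrial UMIs were 5.91% and 11.0%. The part of other cells' RNA in the fold changes was not tested. When cells were classed one by one from the markers, 41 of 82 members were lower (all genes: 14.3%) and 0 higher (all genes: 23.2%), and all 41 were among the 72.

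Other genes of the translation pathway were counted from lists of known members. Of 19 tested translation factors and other TOP mRNAs, 9 were lower and 2 higher in vestibular HC-like cells, with a median log2 fold change of -0.40. The lower ones included Eef1d (-2.26) and Eef1a1 (-1.66), subunits of the elongation factor that brings tRNA, Naca (-1.64), which meets the nascent chain, and Fau (-1.61), a precursor of another small-subunit protein. Of 24 ribosome biogenesis genes 6 were higher and 4 lower (median 0.21), among them Wdr12 (2.81) and Tsr1 (1.73). Of 75 mitochondrial ribosomal protein genes 15 were higher and 6 lower (median 0.07). Of all genes 29.7% were higher and 28.4% lower in this fit. Of 13 genes of mTOR and TOP control 1 rose, Tsc2 (1.07), and 2 fell, Rps6ka1 (-4.64) and Eif4ebp2 (-0.91).

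Type I and type II HC-like cells of the vestibule, which differ in the nerve endings that contact them, differed in few members. The summed share was 7.79%, 8.06%, 7.76% and 7.49% in type I and 8.51%, 8.26%, 7.84% and 8.72% in type II cells. Type I was lower in each pool and the types overlapped across pools, with a difference of -0.558 percentage points (exact permutation p = 0.0571, adjusted 0.0714). Without overlap after thinning to 1000 UMIs per cell, the difference was -1.07 points (exact permutation p = 0.0286, adjusted 0.0476), whereas in cells of at least 2000 UMIs it was -0.268 points with overlap (exact permutation p = 0.400, adjusted 0.50). Of 82 members 2 were lower in type I (all genes: 8.71%) and 0 higher (all genes: 7.66%), with 1 higher and 5 lower at an unadjusted p under 0.05. DESeq2 called 4 lower and 0 higher.

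Both members that passed were lower in type I without overlap. Rpl3, a large-subunit protein near the peptidyl transferase centre, had 730, 647, 833 and 664 CPM in type I and 1090, 957, 1223 and 1054 in type II cells, with a log2 fold change of -0.51 (SE 0.158, adjusted p = 0.0256). Rps9, a small-subunit protein that helps to keep decoding accurate, had 707, 833, 952 and 767 against 1154, 1100, 1325 and 1201, with a log2 fold change of -0.47 (SE 0.162, adjusted p = 0.0464). With the pool as a block, since both types come from the same libraries, 7 were lower (all genes: 11.5%), namely Rpl3, Rpl36a, Rpl39, Rps20, Rps3a1, Rps4x and Rps9, and 5 were higher (all genes: 11.3%), among them Rpl12, Rps24 and Rpsa. Without replicate 1 only Rpl3 passed, and without replicate 3, 4 or 5 neither did. Among translation factors Eef2 (-0.73), Eif3e (-0.53) and Eef1a1 (-0.51) were lower in type I. SC markers summed to 29.3 to 57.9 CPM in type I and 623 to 675 in type II cells, the list holding Sox2, which type II cells express, and their part was not tested.

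Between organs, the summed share of HC-like cells did not separate. Cochlear HC-like cells had 7.01%, 8.20%, 8.74% and 8.86%, from 26, 82, 14 and 32 cells, around the vestibular values given above, and the difference was 0.209 points (exact permutation p = 0.771). Single members did differ. Rps29, Rpl36al and Rpl39 were higher in cochlear than in vestibular HC-like cells and Rpl5 was lower, 3 and 1 of 82 members tested (all genes: 12.5% higher, 17.4% lower). Without cochlear replicate 1 the number higher was 6, and without cochlear replicate 5 the number lower was 0. The cochlear sums mix inner and outer HC-like cells in unequal parts. Inner HC-like cells gave 334947 of the 461341 UMIs in replicate 3 and 76472 of 105011 in replicate 4. In replicate 1, 24 of the 26 cells were outer HC-like, and in replicate 5, 14 of the 32. The part of this mix in the organ differences was not tested.

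Rps29, a small zinc-binding protein of the small subunit, was the most abundant member. It had 9600, 7457, 7285 and 8993 CPM in cochlear HC-like cells and 4358, 3443, 3178 and 3898 in vestibular ones, a log2 fold change of 1.19 (SE 0.255, adjusted p = 0.000920). Every cochlear pool was above every vestibular pool. In SC-like cells Rps29 was at 9354, 7719, 7379 and 7890 in the cochlea and 7082, 5970, 6060 and 6536 in the vestibule (log2 0.45, adjusted p = 0.148), and in macrophage-like cells the log2 fold change was -0.13 (adjusted p = 0.879). The organs did not overlap in SC-like cells either. Against SC-like cells of the same organ, Rps29 in HC-like cells was at log2 -0.12 in the cochlea (adjusted p = 0.701). In the vestibule it was at log2 -0.94 (adjusted p = 0.000891). The difference between these values did not pass, as 0 members had an organ difference in HC-like cells above that of SC-like cells.

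Rpl36al, a copy of Rpl36a, had 700, 663, 762 and 626 CPM in cochlear and 250, 290, 343 and 345 in vestibular HC-like cells, a log2 fold change of 1.18 (SE 0.206, adjusted p = 0.000101). The organs did not overlap. In macrophage-like cells the order was the opposite in value, with 622, 732, 456 and 658 in the cochlea and 751, 835, 942 and 1121 in the vestibule (log2 -0.57, adjusted p = 0.401). The organ difference of HC-like cells exceeded that of macrophage-like cells by 1.90 on the log2 scale (SE 0.434, adjusted p = 0.00534), the 1 member of 82 to pass (all genes: 3.42% higher, 3.44% lower), with 2 passing without cochlear replicate 3. With cells classed singly by markers the value was 0.89 (adjusted p = 0.162) and 0 members passed. For Rps29 the same value was 1.42 (adjusted p = 0.0668). Against SC-like cells, where Rpl36al was also higher in the cochlea (log2 0.66, adjusted p = 0.0152), the excess was 0.37 (adjusted p = 0.411).

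Rps29 and Rpl36al lie on chromosome 12 (Rps29 69157722 to 69159186, Rpl36al 69182731 to 69184083, both on the minus strand of GRCm38), 23544 bases apart. Rpl36al overlaps Gm49383 on the same strand, and reads of such pairs can be assigned to either.

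Rpl39, at the exit tunnel of the large subunit, had 1340, 1307, 1190 and 1752 CPM in cochlear and 997, 974, 613 and 975 in vestibular HC-like cells (log2 0.68, SE 0.238, adjusted p = 0.0351). The organs did not overlap, vestibular replicate 4 stood lowest, and without it the log2 value was 0.49 (adjusted p = 0.156). Rpl39 also missed the threshold without cochlear replicate 3 or 5 or any other vestibular replicate (adjusted p = 0.0532 to 0.148). Rpl5 had 254, 217, 191 and 172 in cochlear and 396, 416, 332 and 270 in vestibular HC-like cells, again without overlap (log2 -0.73, SE 0.224, adjusted p = 0.0159), and without cochlear replicate 5 the value was -0.66 (adjusted p = 0.0639). Set against SC-like cells, 2 members, Rps24 (log2 -1.03, adjusted p = 0.0342) and Rps3 (log2 -0.95, adjusted p = 0.0477), had an organ difference in HC-like cells that was below that of SC-like cells (all genes: 9.82% lower), and 0 were above (all genes: 7.45%, 1 member at an unadjusted p under 0.05). Rps3, which sits where mRNA enters, had 519, 785, 800 and 618 CPM in cochlear and 981, 1070, 1112 and 921 in vestibular HC-like cells, and overlapping values in SC-like cells.

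**Figure D4:**
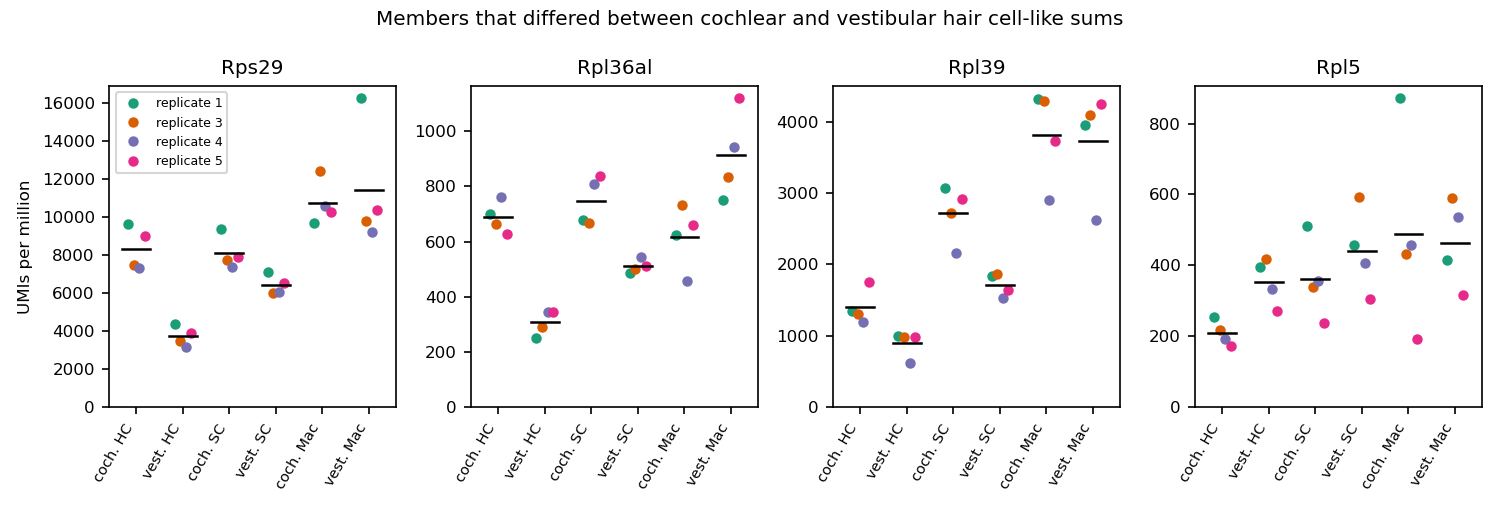
Levels of Rps29, Rpl36al, Rpl39 and Rpl5 in CPM (y axis) in hair cell-like (HC), supporting cell-like (SC) and macrophage-like (Mac) sums of the cochlea (coch.) and vestibule (vest.). Points are the 4 libraries coloured by replicate and lines are means; cochlear HC libraries lie above all vestibular HC libraries for Rps29, Rpl36al and Rpl39 and below them for Rpl5.

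In macrophage-like cells the summed share differed between the organs, at 17.59%, 19.38%, 17.24% and 16.04% in the cochlea and 20.27%, 20.34%, 19.99% and 19.997% in the vestibule. The organs did not overlap, with a difference of -2.59 points (exact permutation p = 0.0286, adjusted 0.0476). Thinned to 1000 UMIs per cell it was -1.68 points with overlap (exact permutation p = 0.114), and with cells classed singly by markers it was 1.33 points, the opposite direction (exact permutation p = 0.314). Gene by gene, edgeR's test called 0 of 81 members in either direction (all genes: 0.488% higher, 0.448% lower), with 0 higher and 2 lower at an unadjusted p under 0.05, and DESeq2 called 0. Erythroid markers reached 33966 CPM in a cochlear library and 57616 in a vestibular one, and melanocyte markers lay at 128 to 2549 in the cochlea and 6997 to 32456 in the vestibule. The part of those markers was not tested.

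Supporting cell-like cells gave other values. Their summed share was 1.73 points higher in the cochlea (exact permutation p = 0.0571), and 7 of 83 members were higher there, namely Rpl24, Rpl29, Rpl31, Rpl35a, Rpl36al, Rpl39 and Rps26, with 0 lower (1 at an unadjusted p under 0.05; all genes: 13.3% higher, 16.1% lower). Rpl36al and Rpl39 were thus higher in the cochlea in HC-like and SC-like cells. The SC-like classes differed in markers. SC markers summed to 883 to 1083 CPM in the cochlear and 4475 to 6556 in the vestibular class. Nonsensory epithelial markers summed to 630 to 1637 and 2068 to 4181. Whether the 2 classes hold like cells was not tested.

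B lineage-like cells of the vestibule held a larger summed share than macrophage-like cells, 29.91%, 26.48%, 27.52% and 25.03% against the macrophage-like values above. The classes did not overlap and differed by 7.09 points (exact permutation p = 0.0286, adjusted 0.0476). Gene by gene only Rps27rt passed, 1 of 83 members (all genes: 9.99% higher), and 0 were lower (all genes: 16.4%), with 4 higher and 0 lower at an unadjusted p under 0.05 and none by DESeq2. The median log2 fold change was 0.30, against 0.05 over all genes. With the pool as a block 6 were higher (all genes: 14%, with 19.2% lower), Rpl4, Rpl7, Rps19, Rps20, Rps27 and Rps27rt. Scaled by library size alone 13 were higher (all genes: 11.2%, with 15.4% lower). Replicate 1 gave 5 B lineage-like and 12 macrophage-like cells.

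Rps27rt, an intron-poor copy of Rps27, rests on 40 UMIs in B lineage-like and 27 in macrophage-like cells. It had 186, 50.7, 54.7 and 45.2 CPM against 79.1, 13.3, 11.3 and 22.0, a log2 fold change of 1.45 (SE 0.434, adjusted p = 0.0173). Replicate 1 was highest in both classes, so the classes overlapped across pools. The call was lost without replicate 3 (log2 1.05, adjusted p = 0.244), 4 (1.24, 0.0739) or 5 (1.64, 0.0748). Rps27 itself had 12469, 6722, 3966 and 5772 against 5714, 3205, 1884 and 2869 (log2 0.80, adjusted p = 0.118), and replicate 1 was again highest. Reads of the 2 genes can be hard to tell apart, and 60 of the 86 members have named pseudogenes in the GENCODE annotation (292 in all), whose reads the counting could not always separate.

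Within the pool of member UMIs, the mix of members was similar but not equal between classes. For 78 members with at least 100 UMIs in each of 21 classes of at least 100 cells, the highest class held a median of 1.97 times the share of the lowest, and 37 members exceeded a ratio of 2. Rplp0 varied most, from 0.406% of the pool in cochlear HC-like cells to 2.66% in vestibular erythroid-like cells, a ratio of 6.56. Rpl22l1 ran from 0.258% in vestibular granulocyte-like to 1.09% in cochlear fibroblast-like cells (4.24), and Rpl36al from 0.224% in cochlear fibroblast-like to 0.857% in cochlear melanocyte-like cells (3.82). Rpsa ran from 0.580% in vestibular fibrocyte-like to 2.12% in vestibular HC-like cells (3.65). Rpl41, which encodes the shortest ribosomal peptide, ran from 1.69% in vestibular T cell-like to 4.57% in cochlear melanocyte-like cells (2.70).

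Mean levels over these classes, in CPM of transcript ends and so not scaled by length, were highest for Rps29 (6965), Rps24 (4325), Rpl41 (3780), Rpl37a (3499) and Rps27 (3265). They were lowest for Rpl10l (0.227), Rpl39l (0.573), Rpl3l (0.647), Rps27rt (30.04) and Rpl7l1 (41.2). Small-subunit members made up 44.1% ± 1.85 of the pool in cochlear and 42.9% ± 0.394 in vestibular HC-like cells. They made up 48.8% ± 1.23 in outer and 40.4% ± 0.261 (n = 2) in inner HC-like cells of the cochlea, and 48.5% ± 0.474 in vestibular granulocyte-like cells.

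Paralog pairs changed their balance between classes. Rpl22l1, the copy of the RNA-binding Rpl22, gave 65.1% ± 10.8 of the UMIs of the pair in cochlear HC-like cells (64.9%, 71.2% and 74.2% in replicates 3, 4 and 5, and 50% in replicate 1) and 57.3% ± 3.20 in vestibular ones. The cochlear class mixes types in unequal parts, and 24 of its 26 cells in replicate 1 were outer HC-like. In outer HC-like cells Rpl22l1 gave 46.4%, 46.4%, 48.1% and 67.4%, and in inner HC-like cells 69.9% and 78.05% in replicates 3 and 4. Its part was 38.6% ± 2.97 and 38.2% ± 4.37 in SC-like cells of the cochlea and vestibule, and 28.9% ± 3.27 and 31.5% ± 3.28 in macrophage-like cells. The ranges of HC-like and SC-like libraries did not overlap in either organ. In vestibular HC-like cells Rpl22 was lower than in SC-like cells (log2 -1.31, SE 0.180, adjusted p = 1.22e-06), and Rpl22l1 did not pass (log2 -0.20, SE 0.209, adjusted p = 0.430). Fibroblast-like cells of the cochlea, with 61.2% ± 8.42, lay between the means of vestibular and cochlear HC-like cells, so a high part of Rpl22l1 was not particular to HC-like cells.

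Rpl36al made up 60.5% ± 0.996 of the pair with Rpl36a in cochlear HC-like cells, with 59.8%, 60.2%, 62.0% and 60.2% in the 4 pools. In vestibular HC-like cells it made up 42.9% ± 7.21, with 34.9%, 39.1%, 50.4% and 47.4%, below the cochlear pools. In fibroblast-like cells of the cochlea it made up 22.7% ± 5.98. Rps27l, a copy of Rps27 that p53 induces, was at 3.84% ± 0.157 (n = 3) of the pair in vestibular T cell-like and 20.2% ± 8.32 in marginal or dark cell-like cells, and at 19.4% and 29.0% in 2 libraries of cochlear melanocyte-like cells. In vestibular macrophage-like cells it ranged from 5.56% to 21.8% between pools.

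**Figure D5:**
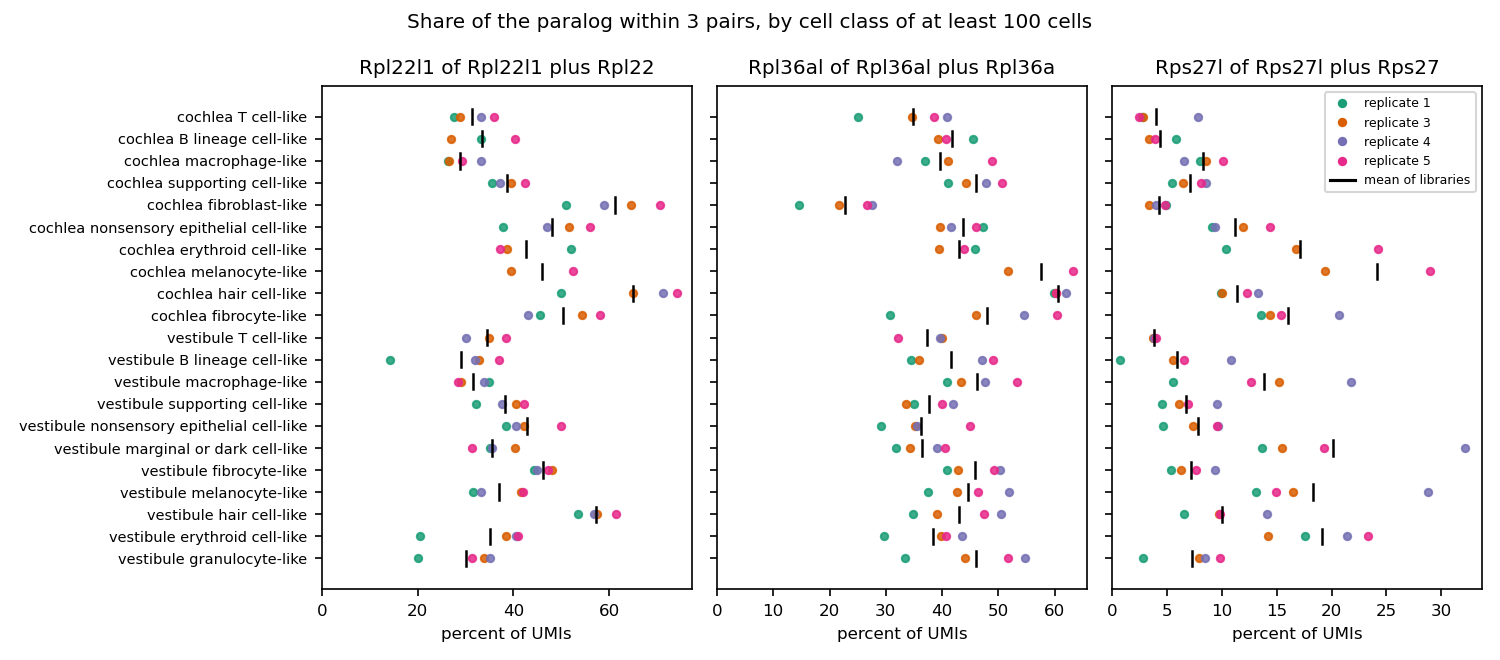
Percent of UMIs from the paralog within 3 pairs (x axes), for each class of at least 100 cells in the cochlea and vestibule. Points are libraries coloured by replicate and black lines are means. Hair cell types are not shown apart, and outer hair cell-like cells alone had libraries below 50% for Rpl22l1. In libraries of all hair cell-like cells Rpl22l1 is at 50% or more, and in those of the cochlea Rpl36al is at 59.8% or more.

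Rare copies were read from few UMIs. Rpl3l, known from striated muscle, had 28 UMIs in the kept vestibular cells, 18 of them in granulocyte-like cells, where it gave 3.62% ± 2.69 of the UMIs of Rpl3 and Rpl3l together (0, 6.19%, 5.00% and 3.28% in replicates 1, 3, 4 and 5). In the cochlea it had 5 UMIs, with 0 in granulocyte-like cells. Rpl39l, known from the testis, had 11 UMIs in the cochlea and 12 in the vestibule, and Rpl10l, also known from the testis, had 1 and 3. Rpl7l1 made up 5.45% ± 0.976 of the pair with Rpl7 in vestibular HC-like and 2.77% ± 0.587 in SC-like cells.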

How the data were processed

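Single-cell libraries of the cochlea and the vestibule of old CBA/J mice were analysed, 5 per organ. The deposited files hold raw UMI counts per gene and barcode, which the authors made with Cell Ranger on mm10 and did not normalize. Its version is 5.0.1 in the file headers of replicates 1 and 2, and 6.1.2 in all other headers and in the submitters' processing notes.

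A barcode was kept if it had 200 or more genes, 1000 or more UMIs and a mitochondrial share under 25%. The 86 members were removed before log-normalization and clustering in Seurat 5.3.0 (2000 variable genes, 30 principal components, resolution 1, HCs again at 0.5, no integration), so that classes were not made from the genes measured. A marker counted as enriched at a log2 fold of 1 or more and detection in 25% or more of the cluster, and at least 3 of 6 enriched markers named a cluster. The rules that left some clusters without a name were chosen with the clusters in view. No doublet caller was run, so doublets remain. The members and lists were chosen with earlier results of these data known. Named members were the paralog pairs, the stalk proteins and Rpsa, the 5 highest and 5 lowest, the 3 largest changes per direction and comparison among those called, and the 5 whose share of the pool varied most; Rps26, Rps2, Rps3 and Rpl27 were added after their values were seen. An item withheld for evaluation is not reported here.

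Sums per library and class, for classes of 5 or more cells, entered edgeR 4.0.16 (R 4.3.3; TMM factors, filterByExpr, quasi-likelihood test, Benjamini-Hochberg adjustment at 0.05 over all genes tested). On simulated counts, genes were given log2 changes of 2 in either direction. Of those that passed the filter, 92.6% to 100% were recovered in the first 5 comparisons and 62.8% in the comparison of organ differences. Recovery of smaller changes was not measured. Shares were compared with exact two-sided permutation tests in scipy 1.17.1, adjusted over the 5 planned comparisons, while those in the cochlea and in supporting cells were added later. Levels are CPM, UMIs per 1000000 UMIs of a class sum, which were computed here from the deposited counts. The 8 libraries had median depths of 1889 to 3298 UMIs per kept cell, and classes of few cells are the least precise. Classes compared within an organ come from the same libraries, which pairs them by pool, and their deviations from class means correlated at 0.156 to 0.356 (HC-like and SC-like), 0.201 to 0.277 (type I and II) and 0.0764 to 0.211 (B lineage-like and macrophage-like). Alternatives were DESeq2 1.42.0, library size alone, an offset of the summed members, no filter, a replicate block, replicate 2 in place of 1, at least 2000 UMIs per cell, markers per cell, resolution 0.5 and each library left out.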

Additional observations from a re-analysis of the deposited data

Results flagged for a closer look

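In groups of 4 libraries, a highest or lowest library was set apart where its gap to the nearest other library took most of the group's range, which chance alone does in about 1 in 20 groups. Of 20 class shares 1 stood apart, outer hair cell-like replicate 1 of the cochlea at 6.44% of UMIs, where the others lay between 9.36% and 9.66%. Of 171 levels of named members 12 stood apart (7.02%). More of these flags lay in replicate 1 than in any other replicate. Among the libraries used, only those of replicate 1 name Cell Ranger 5.0.1 in their headers, and the part of the version was not tested. Values here are CPM (UMIs per 1000000 UMIs of the class), with the range of the 3 other libraries.

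In HC-like cells, Rpl27 was at 579.6 in cochlear replicate 1 (others 1005.8 to 1032.2). Rpl39 was at 613.42 in vestibular HC-like replicate 4 (others 974.34 to 996.77) and at 614.1 in its type I cells (others 883.22 to 906.12). Rps24 was at 1968.1 in vestibular HC-like replicate 1 (others 2405.5 to 2463.7) and at 1887.9 in its type I cells (others 2446.1 to 2509.8), and both pairs share cells. Rps27rt was at 27.856 in vestibular HC-like replicate 1 (others 8.5001 to 11.544), and Rplp0 at 567.76 in type II replicate 1 (others 334.57 to 367.61).

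In SC-like cells of the vestibule, Rpl10 was at 1217.2 in replicate 5 (others 1918.8 to 1962.3), Rpl3 at 1996.9 in replicate 4 (others 1377.2 to 1434.8) and Rpl41 at 3169.5 in replicate 3 (others 3913.7 to 3983). In macrophage-like cells, vestibular replicate 1, with 12 cells, had Rps29 at 16234 (others 9210.1 to 10357) and Rpsa at 1977.3 (others 2463.6 to 2524.4).

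The difference between organs depended on the class for 3 members, by the test of the difference itself in edgeR. For Rpl36al, 1 of 82 members, the organ difference of HC-like cells exceeded that of macrophage-like cells by 1.8979 on the log2 scale (adjusted p = 0.00534). Of all genes 3.42% were higher and 3.44% lower in that fit. With cells classed singly by markers 0 members passed. For Rps24 and Rps3 the organ difference of HC-like cells set against that of SC-like cells was -1.029 (adjusted p = 0.0342) and -0.9538 (adjusted p = 0.0477). They were 2 of 83 members (all genes: 7.45% higher, 9.82% lower), and the use of SC-like cells was chosen after seeing the data.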

How the results depend on the processing

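Of 505 re-computed values of named genes 433 kept their direction and side of the threshold, 57 lost the threshold, 1 gained it, 4 moved and 10 reversed. All 10 are the fit of HC-like against SC-like cells relative to the summed members, which by construction removes the common fall, with log2 values of 0.86 for Rpl22l1, 0.78 for Rpl27, 0.16 for Rpl36al, 0.47 for Rpl41, 0.71 for Rpl7l1, 0.18 for Rplp2, 0.88 for Rps2, 0.46 for Rps24, 0.32 for Rps27l and 0.0862 for Rps29. Counts of members called that moved were as follows, and their causes were not tested unless stated. For HC-like against SC-like cells, library size alone gave 1 higher, Rps19bp1 (all genes: 3228 of 9261). Relative to the members 18 were higher and 15 lower (all genes: 6384 and 1180 of 9261), and markers per cell gave 41 lower (all genes: 1156 of 8102). For type I against type II cells, DESeq2 gave 4 lower (all genes: 612 of 7621), library size alone 5 (742 of 7621) and the fit relative to the members 1 (593 of 7621). No filter gave 0 (897 of 18013) and at least 2000 UMIs 1 (597 of 7251). For cochlear against vestibular HC-like cells, DESeq2 gave 5 higher and 5 lower (all genes: 908 and 1398 of 7834), and markers per cell 6 and 0 (1256 and 1635 of 9337). Library size alone gave 3 lower (1456 of 7834), the fit relative to the members 4 (1494 of 7834) and HCs of a named type 3 (1337 of 7526). B lineage-like cells had 0 higher by DESeq2 (all genes: 186 of 3902), relative to the members (197 of 3902) or without a filter (645 of 16304). They had 13 higher by library size alone (437 of 3902) and 18 of 80 by markers per cell (301 of 1964). For the organ difference of HC-like against macrophage-like cells, DESeq2 gave 3 higher (all genes: 239 of 7212), library size alone 2 (207 of 7212) and markers per cell 0 (130 of 5341). The use of SC-like in place of macrophage-like cells was chosen after seeing the data, as was the restriction to HCs of a named type. With SC-like cells 7 members were higher in the cochlea (all genes: 1077 of 8080). The difference of organ differences then had 0 higher and 2 lower (all genes: 738 and 973 of 9904). A replicate block gave 5 higher and 7 lower for the HC types (all genes: 858 and 873 of 7621) and 6 higher for B lineage-like cells (545 of 3902). Where only the number is shared between organs, it gave 5 lower for HC-like cells (1321 of 7834) and 2 higher for the organ difference (308 of 7212). Correlations of deviations were 0.0359 to 0.113 for HC-like and -0.0552 to 0.121 for macrophage-like cells, where 3 of 4 and 2 of 4 libraries matched their own number best.

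Share differences in percentage points lost the threshold after adjustment without mitochondrial UMIs (HC-like minus SC-like -8.12, macrophage-like between organs -2.74, B lineage-like minus macrophage-like 7.31), as medians over cells (-5.64, -2.81 and 7.06), with at least 2000 UMIs (-6.82, -2.47 and 6.52) and with the replicate block, whose smallest p is 0.125 (-6.81, -2.59 and 7.09). Except with the block, HC-like minus SC-like and B lineage-like minus macrophage-like kept p = 0.0286 without overlap in these settings (exact permutation test, the smallest possible). Their adjusted p was 0.0714 there, since the macrophage-like difference between organs no longer reached that smallest p. Thinning gave -1.68 for macrophage-like cells. Type I minus type II passed when thinned (-1.07) and by markers per cell (-1.05), and was -0.268 with at least 2000 UMIs (adjusted p = 0.50). The macrophage-like difference reversed by markers per cell (1.33) and with SC-like cells (1.73), and the cochlear minus vestibular HC-like difference reversed without cochlear replicate 5 (-0.0098). With each library left out, HC-like against SC-like gave 0 higher and 65 to 73 lower, type I against type II 0 higher and 0 to 1 lower, HC-like between organs 2 to 6 higher and 0 to 1 lower, macrophage-like 0, B lineage-like 0 to 2 higher and the organ difference 1 to 2 higher. The shares then ranged from -7.24 to -6.21, -0.716 to -0.336, -0.0098 to 0.607, -3.20 to -2.08 and 6.23 to 7.77 in the order given, and designs of 3 against 3 cannot go below 0.1. Of 84 class shares 53 moved by less than 1 SD and 31 by more.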

Other observations

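Barcodes that failed the filters held fewer member UMIs than kept cells in every library used, at 4.44% to 9.43% of UMIs in the cochlea and 4.46% to 11.1% in the vestibule. The closest pair was vestibular replicate 1, with 11.1% in failed and 11.4% in kept barcodes.

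Lists of the translation pathway were also counted in the other comparisons (edgeR's quasi-likelihood test). In B lineage-like against macrophage-like cells 3 of 14 ribosome biogenesis genes were higher, Nop56 (log2 1.31), Nop58 (1.12) and Gnl3 (0.93), nucleolar proteins, and 0 lower. Of 8 genes of mTOR and TOP control 2 were lower, Rps6ka1 (-2.40) and Eif4ebp1 (-1.49), kinase and repressor of translation signalling, and 0 higher. Of all genes 9.99% were higher and 16.4% lower in this fit. In cochlear against vestibular HC-like cells Nap1l1 (-1.35) was the 1 of 19 translation factors and other TOP mRNAs to pass (all genes: 12.5% higher, 17.4% lower). In the same comparison 2 of 75 mitochondrial ribosomal protein genes were higher, Mrpl40 (0.99) and Mrps36 (0.72), and 2 lower, Mrps6 (-1.45) and Mrpl23 (-0.56). Of 23 ribosome biogenesis genes 1 was higher, Wdr12 (0.95), and 1 lower, Dkc1 (-0.85). Eif4ebp2 (0.97) was higher, the 1 of 11 genes of mTOR and TOP control to pass. In type I against type II cells Tsc1, a repressor of mTOR signalling, was higher (1.40), as were Mrpl33 and Mrps33 (0.54 each) of the mitochondrial ribosome (all genes: 7.66% higher). Between macrophage-like cells of the organs 0 of the listed genes passed (all genes: 0.488% higher, 0.448% lower).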
